A study of Homo sapiens with 9 samples.

Results

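The genes described here are 42 genes of the ATF4 amino acid stress response, matched by current gene symbol among 60612 annotated genes in messenger RNA libraries of HSC-3, an established human line of oral squamous cell carcinoma. They comprise 9 regulators, 6 stress effectors, 6 enzymes of serine synthesis and mitochondrial one-carbon metabolism, 6 other amino acid enzymes, 7 amino acid transporters, and 8 genes of tRNA charging and export. The 3 groups, each of 3 libraries, are MPTN, MPTN24 and WT. MPTN was read as the cells made resistant by culture with apatinib, an inhibitor of the VEGF receptor tyrosine kinase, MPTN24 as cells given apatinib for 24 h, and WT as the parental line. The labels do not spell out these group names, so that reading rests on the study's design text. No dose is given, and the labels do not say whether the resistant line is 1 clone or whether it was kept in the drug up to harvest.

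ATF4 is a bZIP transcription factor whose mRNA is translated better when a kinase phosphorylates eIF2, as happens when amino acids run short (GCN2), when proteins misfold in the endoplasmic reticulum (PERK), or under heme deficiency or mitochondrial stress (HRI). It binds C/EBP-ATF response elements, often with a C/EBP partner, and turns on genes that make, import and charge amino acids onto tRNA. The same programme contains its own brakes, among them TRIB3, which binds ATF4, and PPP1R15A, which brings a phosphatase to eIF2. Because ATF4 is controlled largely at translation, its mRNA and its activity need not move together.

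The libraries held 60383313 to 98890929 counts. KRT5, KRT14 and 7 other keratinocyte genes had counts in all 9 libraries, with a summed level of 12430 to 14010 CPM (counts scaled to each library's size after TMM normalization) in MPTN, 11990 to 13370 CPM in MPTN24 and 12010 to 17070 CPM in WT. The leukocyte genes PTPRC, CD3E, TYROBP and NKG7 had no count in any library, although CSF1R had counts in all. The 3 endothelial genes summed to at most 0.303 CPM, and the 6 fibroblast genes to 11.5 to 12 CPM in MPTN, 12.3 to 14.8 CPM in MPTN24 and 10.5 to 19.2 CPM in WT. In bulk RNA, fewer cells that express a gene and less RNA per cell cannot be told apart. One library stood apart in the genes of interest. The 42 genes summed to 12480 to 13420 CPM in the MPTN libraries, 11470 to 12340 CPM in the MPTN24 libraries, and 8671 CPM in WT 1 beside 11200 in WT 2 and 11280 in WT 3. In WT 1, 35 of the 42 were below the mean of WT 2 and WT 3, with a median log2 difference of -0.37, while the median over all tested genes was -0.04 and 53.7% of them were lower. The gap was widest in the serine and one-carbon genes (median -0.83, 6 of 6 lower) and was -0.47 in the tRNA genes (8 of 8 lower). Mitochondrially encoded transcripts took 4.66% to 5.13% of the counts in MPTN, 5.04% to 5.73% in MPTN24, 4.74% in WT 1, and 2.72% and 3.02% in WT 2 and WT 3, and their part in the results was not tested. The part of WT 1 was not tested beyond refitting without it, and counts of genes by role are also given without WT 1.

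All 42 genes passed the filter on low counts, and each was tested among 16990 genes with edgeR's quasi-likelihood test and Benjamini-Hochberg adjustment at 0.05. In MPTN24 against WT, 18 of the 42 were higher and 4 were lower, while 11.1% and 12.1% of all tested genes were called higher and lower. The median log2 change of the 42 was 0.32, against 0.01 over all tested genes. Without WT 1, 18 were higher and 10 lower, with 12.9% and 14.4% of all genes called. In MPTN against WT, 24 were higher and 2 lower, with a median of 0.54 against 0.02 over all tested genes, and 18.3% and 18.1% of all genes were called higher and lower. Without WT 1, 24 were higher and 4 lower (18.4% and 18.7% of all genes). In MPTN against MPTN24, 11 were higher and 1 was lower, with a median of 0.12 against 0.01, and 7.85% and 6.7% of all genes were called. Without WT 1, 13 were higher and 2 lower (10.5% and 9.81% of all genes). The first and second comparisons share the WT libraries, and the third shares its libraries with both.

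**Figure D1:**
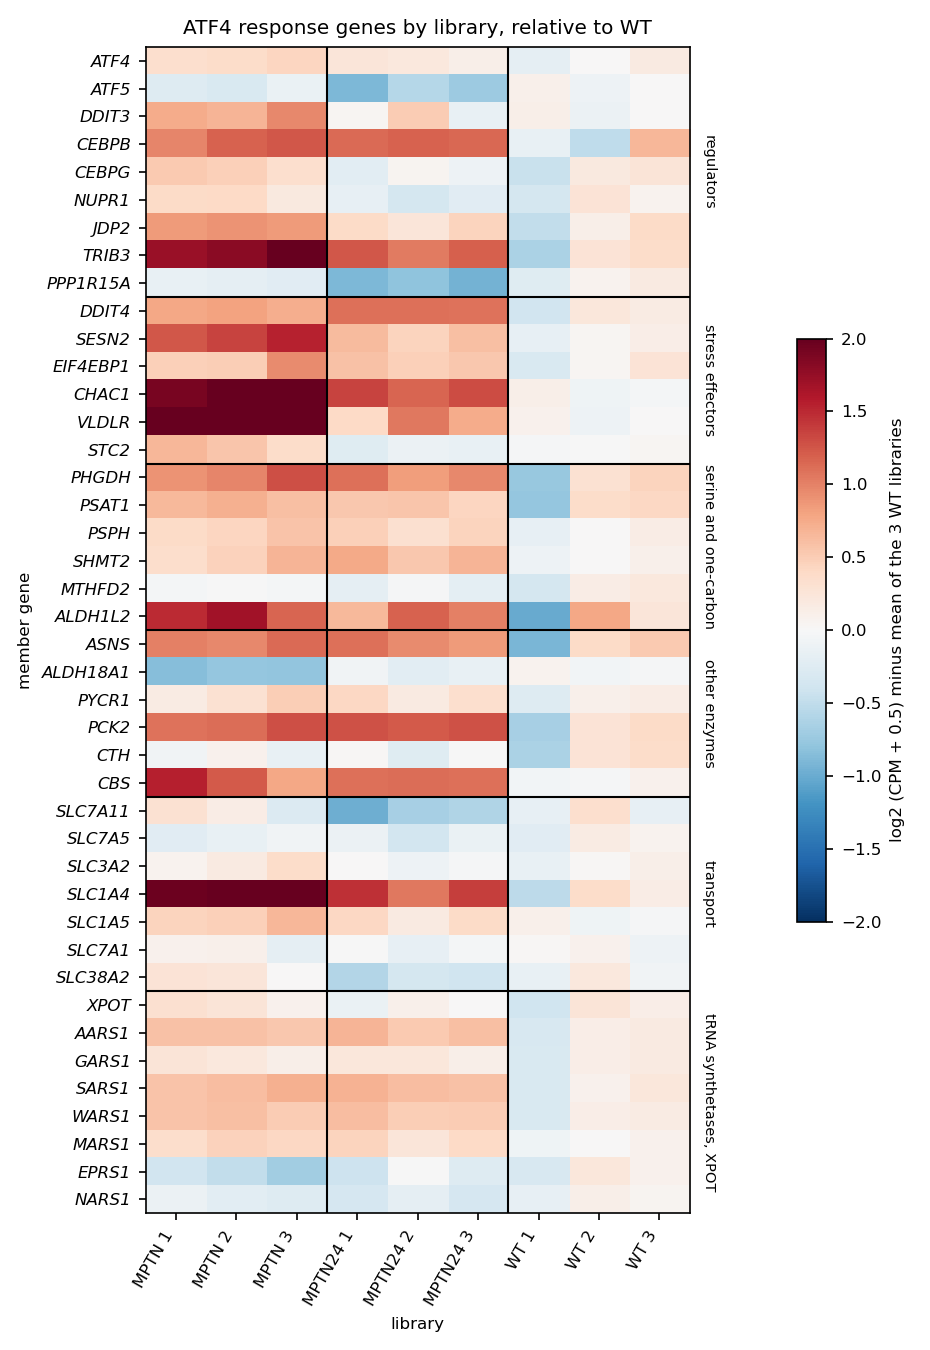
Each cell is the log2 level (CPM + 0.5) of a gene in a library minus the mean of the 3 WT libraries, with genes in rows by role and libraries in columns; values beyond 2 are drawn at the end of the scale. CHAC1, VLDLR, SLC1A4 and TRIB3 are darkest in the 3 MPTN libraries, PPP1R15A and SLC7A11 are blue in MPTN24, and WT 1 is blue in most rows.

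**Figure D2:**
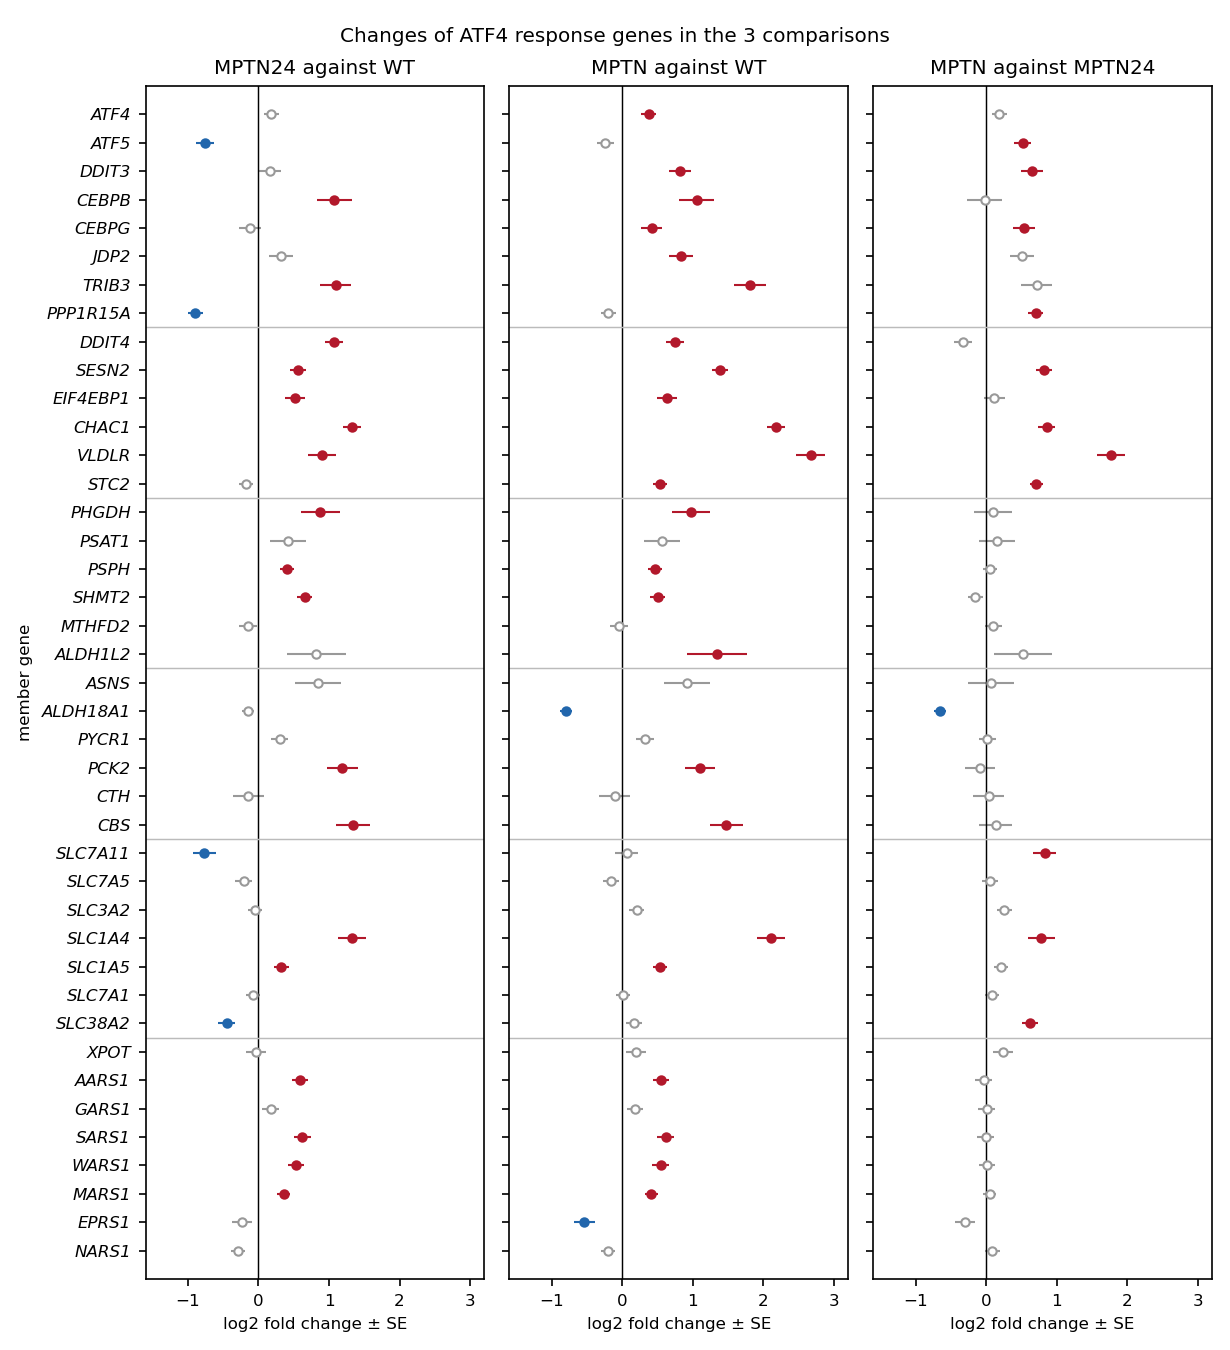
Points are log2 fold changes of 41 genes (NUPR1, near 0 counts, is left out) and bars their standard errors, in MPTN24 against WT, MPTN against WT and MPTN against MPTN24. Filled red and blue points passed the test as higher and lower, and the widest bars are those of ALDH1L2, ASNS and PHGDH, whose WT 1 level was 31.3%, 38.7% and 45.6% of the mean of WT 2 and WT 3.

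The C/EBP-ATF response element is where ATF4 binds, so its letters were sought near the start sites of these genes. RefSeq start-site windows of 300 bases on GRCh38.p14 were at hand for 35 of the 42 genes, and not for ALDH1L2, EIF4EBP1, NUPR1, PSPH, PYCR1, SHMT2 or SLC7A11. The motif TGATGNAA, read on both strands (TTNCATCA on the other), lay in a window of 12 of the 35 genes (34.3%). It lay in 2.88% of the 11392 tested genes with a window, and in 3.62% of all 35116 windows. A gene counted if any of its windows held the motif, and some genes had more windows than others. The 42 were listed as ATF4 response genes, and this element has long been studied in ASNS. Their higher share is therefore no test of these data. These 12 sites are shown because the share of 34.3% rests on them. SLC1A4, GARS1, CEBPG and JDP2 held the site only in window 2 of their listed start sites. SLC1A5 held it only in window 3, at 46784765 to 46785064, inside a gene annotated from 46774883 to 46788594. The windows with the site also lay inside the annotated gene in SLC3A2 (62881449 to 62881748), GARS1 (30594628 to 30594927) and MARS1 (57487818 to 57488117). These genes are annotated from 62856102, 30580533 and 57475445. Windows of CHAC1, SLC1A4, CEBPG, JDP2 and NARS1 lay inside their genes too, nearer the annotated start. Each site is written 5′ to 3′ on the strand that reads TGATGNAA, with the motif in capitals. Its position counts bases from the start site of its window.
CHAC1, chr15:40953252-40953279, minus strand, -209: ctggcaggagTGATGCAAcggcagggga
SLC1A4, chr2:64989382-64989409, minus strand, -7: cggctggagaTGATGCAAacgggagccg
SLC1A5, chr19:46784894-46784921, minus strand, -97: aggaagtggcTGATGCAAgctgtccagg
SLC3A2, chr11:62881726-62881748, minus strand, 38: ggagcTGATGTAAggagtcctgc
SLC7A1, chr13:29595664-29595691, minus strand, 8: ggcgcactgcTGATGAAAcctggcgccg
ASNS, chr7:97872459-97872486, minus strand, -68: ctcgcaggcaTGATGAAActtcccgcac
AARS1, chr16:70289676-70289703, plus strand, -187: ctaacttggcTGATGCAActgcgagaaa
GARS1, chr7:30594835-30594862, minus strand, -33: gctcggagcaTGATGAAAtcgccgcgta
MARS1, chr12:57488054-57488081, minus strand, -4: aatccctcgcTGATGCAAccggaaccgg
NARS1, chr18:57621805-57621832, minus strand, 15: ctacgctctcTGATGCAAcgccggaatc
CEBPG, chr19:33374061-33374088, plus strand, -42: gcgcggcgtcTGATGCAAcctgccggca
JDP2, chr14:75427996-75428023, plus strand, -16: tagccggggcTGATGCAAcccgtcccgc
The element was found in 4 of the 6 transporters with a window, in 4 of the 8 tRNA genes, and in 2 of 8 regulators. In MPTN against WT it was present in 7 of the 20 higher genes with a window, in 0 of the 2 lower ones and in 5 of the 13 that did not pass, with all 9 libraries; CEBPG, 1 of the 7, did not pass without WT 1 (adjusted p = 0.1). A match of letters is not a measured binding site, and genes without a match in this window may hold one elsewhere.

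Full windows are shown for CHAC1 and SLC1A4, which were the pair of higher genes with the largest changes among those holding the element, and for ASNS, in which this element has long been studied. They are written on the coding strand from 250 bases before to 50 bases after the start of that window, with the motif or its reverse complement in capitals. For SLC1A4 this is window 2, and its window 1 held no motif. For ASNS it is window 1, and its window 2 held no motif.
CHAC1, chr15:40953221-40953520, plus strand: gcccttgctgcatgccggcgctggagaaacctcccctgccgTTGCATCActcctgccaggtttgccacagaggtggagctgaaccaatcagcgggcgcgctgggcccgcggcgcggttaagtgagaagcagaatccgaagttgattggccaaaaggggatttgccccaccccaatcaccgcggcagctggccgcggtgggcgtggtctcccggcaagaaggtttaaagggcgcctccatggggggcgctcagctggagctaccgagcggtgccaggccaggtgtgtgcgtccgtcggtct
SLC1A4, chr2:64989149-64989448, plus strand: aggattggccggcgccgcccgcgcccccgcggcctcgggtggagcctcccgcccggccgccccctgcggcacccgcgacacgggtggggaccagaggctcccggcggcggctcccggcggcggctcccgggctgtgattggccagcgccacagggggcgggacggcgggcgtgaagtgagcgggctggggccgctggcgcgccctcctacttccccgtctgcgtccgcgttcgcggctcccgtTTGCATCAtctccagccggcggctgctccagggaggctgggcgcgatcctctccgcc
ASNS, chr7:97872359-97872658, minus strand: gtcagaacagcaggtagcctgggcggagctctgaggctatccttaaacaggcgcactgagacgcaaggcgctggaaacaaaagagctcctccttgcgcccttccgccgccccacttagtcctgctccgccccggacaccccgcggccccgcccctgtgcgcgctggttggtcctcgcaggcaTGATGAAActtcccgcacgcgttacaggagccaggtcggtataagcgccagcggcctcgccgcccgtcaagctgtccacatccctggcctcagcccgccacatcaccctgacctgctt

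Of the 9 regulators, 2 were higher and 2 lower in MPTN24 than in WT, and 6 were higher and none lower in MPTN than in WT. In MPTN against MPTN24, 4 were higher. All tested genes gave 11.1% and 12.1%, 18.3% and 18.1%, and 7.85% and 6.7% higher and lower in these comparisons. Without WT 1 the regulator counts were 1 and 3, 4 and 1, and 6 and 0. ATF4 mRNA itself (ENSG00000128272, GRCh38 chromosome 22, 39519672 to 39522683) was at 583, 594 and 624 CPM in MPTN, 547, 532 and 502 CPM in MPTN24, and 406, 465 and 521 CPM in WT. All 3 MPTN libraries lay above all others, while MPTN24 overlapped WT. ATF4 rose 1.29-fold in MPTN over WT (log2 0.37 ± 0.10 SE, adjusted p = 0.011), and its log2 difference of 0.18 ± 0.10 in MPTN24 did not pass (adjusted p = 0.21). TRIB3 (ENSG00000101255, chromosome 20, 362835 to 397559), the pseudokinase that restrains ATF4, was at 493, 521 and 629.6 CPM in MPTN, 352, 306 and 341 CPM in MPTN24, and 95.3, 181 and 191 CPM in WT. The 3 groups did not overlap, in the order MPTN, MPTN24, WT. TRIB3 rose 3.52-fold in MPTN (log2 1.81 ± 0.23, adjusted p = 0.00017) and 2.14-fold in MPTN24 (1.10 ± 0.22, adjusted p = 0.0069) over WT. MPTN exceeded MPTN24 by 0.72 ± 0.22 (adjusted p = 0.055), and by the same 0.72 with adjusted p = 0.00023 when WT 1 was left out of the fit.

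DDIT3, which encodes CHOP, a factor that can turn the response towards cell death, was at 29.9, 28.8 and 34.8 CPM in MPTN, 18.3, 25.2 and 15.9 CPM in MPTN24, and 19.2, 16.2 and 17.8 CPM in WT. MPTN stood above both other groups, which overlapped. It rose by log2 0.81 ± 0.16 in MPTN over WT (adjusted p = 0.0011) and by 0.65 ± 0.16 over MPTN24 (adjusted p = 0.012), and its 0.16 ± 0.16 in MPTN24 against WT did not pass. The difference from MPTN24 missed the threshold without MPTN 3 (0.053), MPTN24 1 (0.063) or MPTN24 3 (0.07). DDIT3 shares 982 bases with MARS1 and 1028 with MBD6 on the opposite strand, and the library kit does not keep strand, so reads in those bases cannot be told apart. MARS1 changed by 0.41 and MBD6 by 0.32 in MPTN against WT, and by 0.05 and 0.15 in MPTN against MPTN24. PPP1R15A (ENSG00000087074, chromosome 19, 48872421 to 48876058), the phosphatase subunit that ends the response, ran otherwise, at 197, 192 and 185 CPM in MPTN, 117, 124 and 113 CPM in MPTN24, and 184, 228 and 246 CPM in WT. All MPTN24 libraries were below all others, and MPTN overlapped WT. PPP1R15A fell by 0.90 ± 0.11 on the log2 scale in MPTN24 (adjusted p = 0.0002) and did not pass in MPTN (-0.20 ± 0.11, adjusted p = 0.17); without WT 1 it was also lower in MPTN (-0.31, adjusted p = 0.01). Its level in MPTN exceeded that in MPTN24 by 0.70 ± 0.11 (adjusted p = 0.00077).

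ATF5, a related bZIP factor also controlled at translation, was likewise lowest in MPTN24, at 15.6, 15.01 and 17 CPM in MPTN, 9.76, 12.4 and 11.1 CPM in MPTN24, and 20.1, 17.4 and 18.7 CPM in WT. The groups did not overlap. ATF5 fell by 0.75 ± 0.12 in MPTN24 against WT (adjusted p = 0.0011), and was higher in MPTN than in MPTN24 by 0.52 ± 0.12 (adjusted p = 0.013), while MPTN against WT gave -0.24 ± 0.12 (adjusted p = 0.15). It shares 1062 bases with NUP62 on the opposite strand, which passed in no comparison (log2 -0.22 in MPTN and -0.14 in MPTN24 against WT, -0.08 in MPTN against MPTN24). The ATF5 difference between MPTN and MPTN24 did not pass without MPTN24 1 (adjusted p = 0.068) or MPTN24 3 (0.053). Among the other bZIP partners, CEBPB averaged 166 ± 15 CPM in MPTN, 169 ± 3.0 in MPTN24 and 80.2 ± 35 in WT (SD, n = 3 each). It rose by 1.05 ± 0.25 in MPTN and 1.08 ± 0.25 in MPTN24 over WT (adjusted p = 0.0092 and 0.015), and neither call held without WT 1 (adjusted p = 0.056 and 0.065), which left WT 2 at 53.1 and WT 3 at 119.8 CPM. The call in MPTN24 was also lost without MPTN24 1 (0.051). JDP2, a repressor of the same family, rose in MPTN over WT by 0.83 ± 0.17 (adjusted p = 0.0015), with 65.6 to 68.2 CPM in MPTN, 43.0 to 49.8 in MPTN24 and 25.6 to 47.3 in WT; limma on FPKM did not call it (adjusted p = 0.15 and 0.17). CEBPG, the heterodimer partner of ATF4, rose in MPTN by 0.42 ± 0.15 over WT and by 0.53 ± 0.15 over MPTN24 (adjusted p = 0.046 and 0.031). Without WT 1 its log2 change against WT was 0.23 in MPTN (adjusted p = 0.1) and -0.31 in MPTN24 (adjusted p = 0.037). Its calls were lost in 7 and 8 of 19 alternatives, among them without MPTN 1 (0.12 and 0.096), without MPTN24 1 (0.059 and 0.13) and without MPTN24 3 (0.067 and 0.1). NUPR1, a small stress-induced chromatin protein, had 116 counts over all libraries, at most 0.344 CPM, and did not pass in any comparison with all 9 libraries; with only the 2 groups compared, MPTN against MPTN24 gave 2.95 (adjusted p = 0.039).

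**Figure D3:**
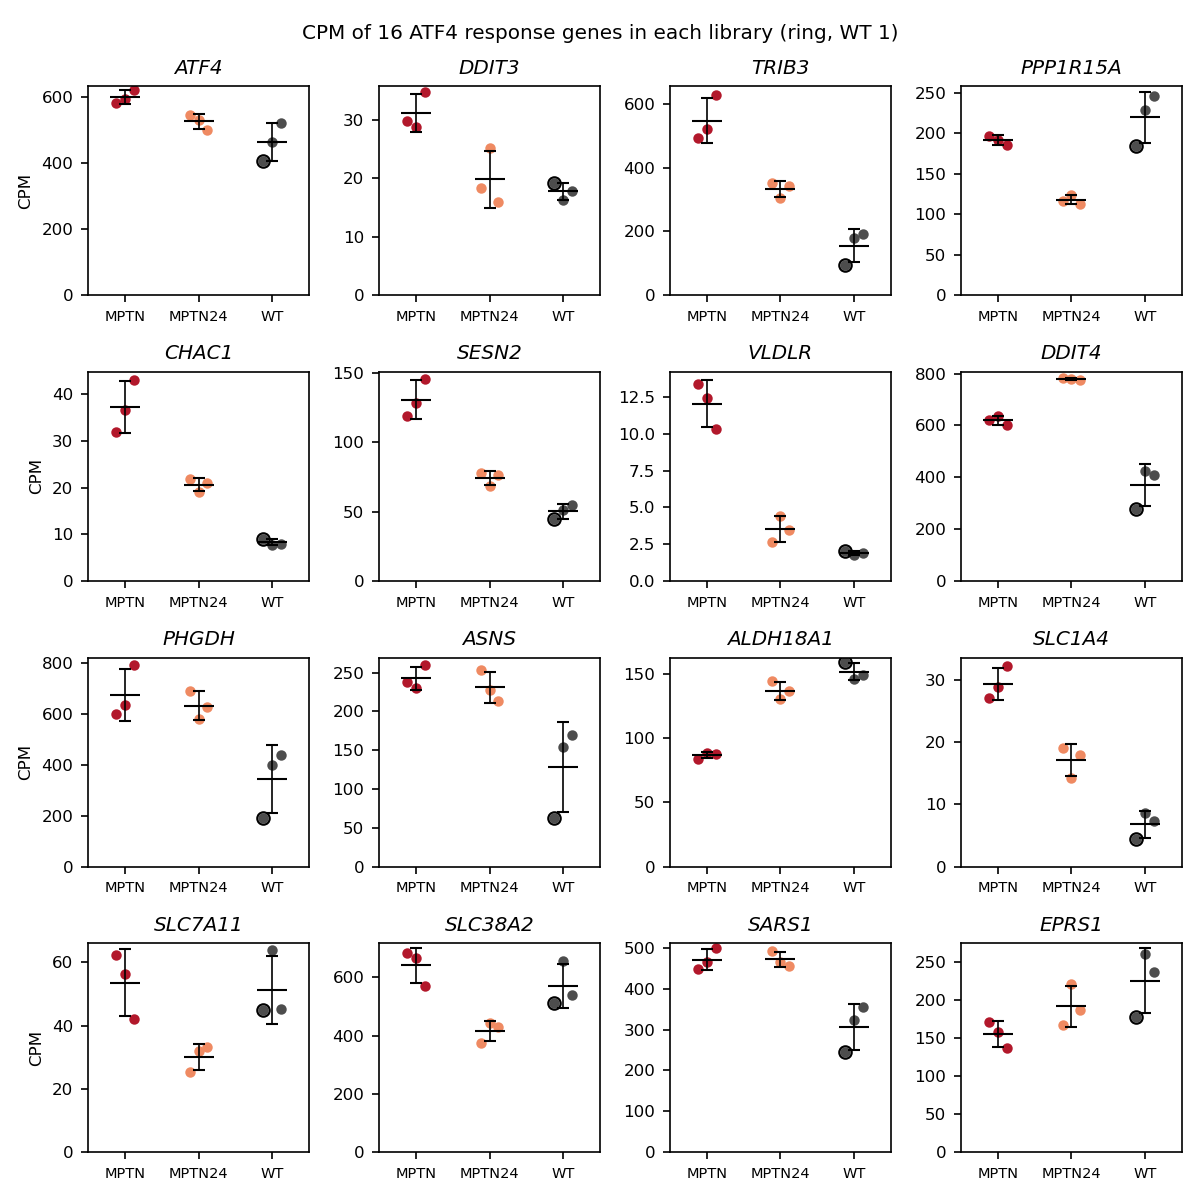
CPM of 16 of the genes in each library, with MPTN, MPTN24 and WT from left to right; lines are means, bars SDs over 3 libraries and the ring marks WT 1. TRIB3, CHAC1, SESN2, VLDLR and SLC1A4 step down from MPTN through MPTN24 to WT without overlap, PPP1R15A, SLC7A11 and SLC38A2 are lowest in MPTN24, and ALDH18A1 is lowest in MPTN.

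The stress effectors moved most. All 6 were higher in MPTN than in WT, 5 were higher in MPTN24 than in WT, and 4 were higher in MPTN than in MPTN24, with none lower. The higher shares over all tested genes were 18.3%, 11.1% and 7.85%. Without WT 1 the higher counts of the 6 were the same and DDIT4 was lower in MPTN than in MPTN24. CHAC1 (ENSG00000128965, chromosome 15, 40952962 to 40956512), an enzyme that breaks down glutathione, was at 32.0, 36.7 and 43.1 CPM in MPTN, 21.8, 19.1 and 21.0 CPM in MPTN24, and 8.98, 7.77 and 8.002 CPM in WT. The 3 groups were apart in that order. It rose 4.52-fold in MPTN (log2 2.18 ± 0.13, adjusted p = 9.7e-08) and 2.5-fold in MPTN24 (1.32 ± 0.13, adjusted p = 6.4e-05) over WT, and by 0.85 ± 0.13 in MPTN over MPTN24 (adjusted p = 0.00059). WT 1 was the highest WT library for CHAC1, unlike most of the genes.

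VLDLR (ENSG00000147852, chromosome 9, 2621787 to 2660056), a lipoprotein receptor, was at 13.4, 12.4 and 10.3 CPM in MPTN, 2.66, 4.43 and 3.48 CPM in MPTN24, and 2.03, 1.73 and 1.91 CPM in WT. Again the groups did not overlap. It rose 6.37-fold in MPTN over WT (2.67 ± 0.21, adjusted p = 9.9e-07), the largest log2 change against WT of the 42, and 1.87-fold in MPTN24 over WT (0.90 ± 0.20, adjusted p = 0.0066). Per length it was one of the lowest of the genes, at 1.804 ± 0.44 FPKM in MPTN, 0.471 ± 0.17 in MPTN24 and 0.183 ± 0.019 in WT, and limma on log2 of FPKM plus 1 gave 0.31 in MPTN24 (adjusted p = 0.12) and 1.23 in MPTN against WT, and 0.92 in MPTN against MPTN24. SESN2, a stress-induced inhibitor of mTORC1, was at 119, 128 and 146 CPM in MPTN, 77.7, 68.2 and 76.5 CPM in MPTN24, and 44.5, 51.4 and 54.7 CPM in WT. It rose in MPTN by 1.38 ± 0.11 over WT (adjusted p = 1.3e-06) and by 0.82 ± 0.11 over MPTN24 (adjusted p = 0.00028), and in MPTN24 by 0.56 ± 0.11 over WT (adjusted p = 0.0029).

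DDIT4, another inhibitor of mTORC1, had a different order, at 623, 637 and 600.1 CPM in MPTN, 782, 779.9 and 776 CPM in MPTN24, and 279, 425 and 407 CPM in WT. Every MPTN24 library was above all others. DDIT4 rose by 0.74 ± 0.13 in MPTN and by 1.07 ± 0.13 in MPTN24 over WT (adjusted p = 0.00058 and 0.00022), and MPTN was at -0.33 ± 0.13 against MPTN24 (adjusted p = 0.11, and 0.0058 without WT 1). STC2, a secreted glycoprotein, averaged 86.3 ± 8.7 CPM in MPTN, 52.8 ± 2.5 in MPTN24 and 59.5 ± 1.2 in WT, and rose in MPTN over WT by 0.54 ± 0.10 (adjusted p = 0.00067) and did not pass in MPTN24 (-0.17 ± 0.10, adjusted p = 0.22). EIF4EBP1, which holds back cap-dependent translation, rose by 0.63 ± 0.15 in MPTN and 0.52 ± 0.15 in MPTN24 over WT (adjusted p = 0.0039 and 0.021). The call in MPTN24 was lost without MPTN24 1 (0.082), MPTN24 3 (0.067) or WT 2 (0.057).

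Of the 6 serine and one-carbon genes, 4 were higher in MPTN than in WT and 3 in MPTN24 than in WT, with none lower. Among all tested genes, 18.3% and 11.1% were higher. In MPTN against MPTN24, 0 passed edgeR's test, DESeq2 or limma, and 0 had an unadjusted p under 0.05; in edgeR with only the 2 groups compared, ALDH1L2 did (0.52, adjusted p = 0.032). Without WT 1, 0 passed in MPTN against MPTN24, 5 were higher in MPTN than in WT, and 3 were higher and 1 lower in MPTN24 than in WT. PHGDH, the first enzyme of serine synthesis, was at 599.8, 634 and 791 CPM in MPTN, 691, 579 and 626 CPM in MPTN24, and 191, 400.2 and 440 CPM in WT. All MPTN and MPTN24 libraries lay above every WT library, and the WT 1 value was 45.6% of the mean of WT 2 and WT 3. PHGDH rose by 0.97 ± 0.27 in MPTN and 0.88 ± 0.27 in MPTN24 over WT (adjusted p = 0.022 and 0.048). Without WT 1 the change was smaller with a lower p, 0.59 in MPTN24 (adjusted p = 0.0034). The call in MPTN24 was lost in 10 of 19 alternatives, with adjusted p of up to 0.14 without MPTN24 1, and that in MPTN with no filter (0.062) and without MPTN 3 (0.099). PSPH, the last enzyme of the pathway, rose by 0.46 ± 0.10 in MPTN and 0.41 ± 0.10 in MPTN24 (adjusted p = 0.0025 and 0.01, and 0.053 in MPTN24 without MPTN24 1). Its pseudogene PSPHP1 took 2073 counts over all libraries, and how reads were split between the copies is not known. SHMT2, which passes the serine carbon to folate in mitochondria, was at 612, 662 and 769 CPM in MPTN, 809, 695 and 769.7 CPM in MPTN24, and 447, 482 and 516 CPM in WT. It rose by 0.50 ± 0.11 in MPTN and 0.66 ± 0.11 in MPTN24 over WT (adjusted p = 0.0025 and 0.0012).

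PSAT1, the enzyme between PHGDH and PSPH, was at 352, 366 and 339 CPM in MPTN, 324, 327 and 299 CPM in MPTN24, and 130.4, 287 and 297 CPM in WT. Its groups did not overlap, yet neither change against WT passed edgeR's test (0.57 ± 0.26 in MPTN and 0.41 ± 0.25 in MPTN24, adjusted p = 0.12 and 0.29). Without WT 1 it was 0.27 higher in MPTN (adjusted p = 0.021), and DESeq2 on all 9 libraries called it higher in MPTN by 0.56 (adjusted p = 0.021). ALDH1L2, a mitochondrial folate enzyme, averaged 19.2 ± 3.4 CPM in MPTN, 13.4 ± 2.5 in MPTN24 and 7.54 ± 4.3 in WT, where WT 1 was at 3.06. It rose in MPTN over WT by 1.34 ± 0.42 (adjusted p = 0.039) and overlaps C12orf45 over 54414 bases on the opposite strand. C12orf45 was at -0.52 in the same comparison. ALDH1L2 also shares 320 bases with WASHC4 on the opposite strand, which was at 0.38 (adjusted p = 0.041). The ALDH1L2 call was lost in 8 of 19 alternatives, among them without WT 3 (0.1) and without MPTN 2 (0.11). MTHFD2, the mitochondrial folate dehydrogenase, averaged 260 ± 2.7 CPM in MPTN, 243 ± 17 in MPTN24 and 269 ± 54 in WT and passed no test; without WT 1 it was lower in MPTN24 than in WT by 0.31 on the log2 scale (adjusted p = 0.016).

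Among the 6 other amino acid enzymes, 2 were higher and none lower in MPTN24 than in WT, and 2 were higher and 1 lower in MPTN than in WT. Without WT 1 these counts were 3 and 1, and 3 and 1. The shares over all tested genes, with all 9 libraries, were 11.1% and 12.1%, and 18.3% and 18.1%. PCK2, the mitochondrial enzyme that makes phosphoenolpyruvate, was at 113, 116 and 129 CPM in MPTN, 128, 124 and 128 CPM in MPTN24, and 33.1, 64.2 and 68.9 CPM in WT. All MPTN and MPTN24 libraries were above WT. It rose 2.15-fold in MPTN and 2.28-fold in MPTN24 over WT (1.10 ± 0.22 and 1.19 ± 0.22, adjusted p = 0.0026 and 0.0039). CBS, which starts transsulfuration, averaged 4.08 ± 1.2 CPM in MPTN, 3.71 ± 0.02 in MPTN24 and 1.46 ± 0.10 in WT and was higher in both comparisons with WT (1.48 ± 0.24 and 1.34 ± 0.24). Its near-identical copy CBSL took 95 counts, and how reads were split between the copies is not known, so these values are uncertain. CTH, the next enzyme, averaged 8.55 ± 0.76 CPM in MPTN, 8.36 ± 0.89 in MPTN24 and 9.21 ± 3.3 in WT and did not pass with all 9 libraries; without WT 1 it was lower in MPTN24 than in WT (-0.41, adjusted p = 0.047).

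ASNS (ENSG00000070669, chromosome 7, 97851677 to 97872542), asparagine synthetase and the classic target of the element printed above, was at 237, 231 and 259.6 CPM in MPTN, 253, 227 and 214 CPM in MPTN24, and 62.6, 154 and 169 CPM in WT. No MPTN or MPTN24 library overlapped WT, and WT 1 stood at 38.7% of the mean of the other WT libraries. ASNS did not pass edgeR's test in MPTN (0.91 ± 0.33, adjusted p = 0.063) or MPTN24 (0.85 ± 0.33, adjusted p = 0.11). Without WT 1 it was higher in both, by 0.59 in MPTN and 0.52 in MPTN24 (adjusted p = 0.00043 and 0.002). DESeq2 on all 9 libraries also called it in MPTN (0.012) and MPTN24 (0.026). In MPTN it was called by limma on FPKM (0.021 and 0.014), with upper-quartile scaling (0.046) and without WT 3 (0.035). ALDH18A1 (ENSG00000059573, chromosome 10, 95605941 to 95656711), which starts proline synthesis from glutamate, was at 83.8, 88.5 and 87.9 CPM in MPTN, 144, 130.3 and 136 CPM in MPTN24, and 159, 146 and 149 CPM in WT. Its MPTN libraries lay far below the rest. ALDH18A1 fell by 0.80 ± 0.09 in MPTN against WT (adjusted p = 1.2e-05) and by 0.66 ± 0.09 against MPTN24 (adjusted p = 0.00024), and MPTN24 against WT gave -0.15 ± 0.09 (adjusted p = 0.24). PYCR1, the last enzyme of proline synthesis, did not pass, at 0.32 ± 0.12 in MPTN and 0.30 ± 0.12 in MPTN24 against WT (adjusted p = 0.057 and 0.092); in MPTN it was called higher in 9 of 19 alternatives, among them DESeq2 (0.048) and limma on FPKM (0.047 and 0.049).

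The 7 transporters went both ways in MPTN24. There 2 were higher and 2 lower than in WT, while all tested genes gave 11.1% and 12.1%. In MPTN against WT, 2 were higher (28.6%, not far above the 18.3% of all genes). In MPTN against MPTN24, 3 were higher, with 7.85% of all genes. Without WT 1 the lower count in MPTN24 was 3 and the other counts were the same. SLC1A4 (ENSG00000115902, chromosome 2, 64988477 to 65023865), a carrier of alanine, serine and cysteine, was at 27.0, 28.8 and 32.2 CPM in MPTN, 19.1, 14.2 and 17.9 CPM in MPTN24, and 4.44, 8.62 and 7.37 CPM in WT. Its groups were apart in that order. SLC1A4 rose 4.3-fold in MPTN (2.10 ± 0.20, adjusted p = 5e-06) and 2.5-fold in MPTN24 (1.32 ± 0.20, adjusted p = 0.00067) over WT, and by 0.78 ± 0.19 in MPTN over MPTN24 (adjusted p = 0.015; 0.065 without MPTN 3 and 0.075 without MPTN24 2). SLC1A5, the related glutamine carrier, rose less, by 0.53 ± 0.10 in MPTN and 0.33 ± 0.10 in MPTN24 over WT (adjusted p = 0.00097 and 0.031). The SLC1A5 call in MPTN24 was lost in 6 of 19 alternatives, without MPTN24 1 (0.13), MPTN24 3 (0.12), WT 2 (0.12), WT 3 (0.081) or MPTN 2 (0.052) and with no filter (0.057).

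SLC7A11 (ENSG00000151012, chromosome 4, 138164097 to 138242349), the cystine-glutamate exchanger, was at 62.5, 56.3 and 42.03 CPM in MPTN, 25.5, 32.0 and 33.2 CPM in MPTN24, and 45.01, 63.8 and 45.2 CPM in WT. MPTN24 was lowest and apart, and MPTN overlapped WT. It fell by 0.77 ± 0.17 in MPTN24 against WT (adjusted p = 0.006) and was 0.83 ± 0.17 higher in MPTN than in MPTN24 (adjusted p = 0.0051), with 0.06 ± 0.17 in MPTN against WT. SLC38A2, a sodium-coupled carrier of small neutral amino acids, was at 682, 667 and 571 CPM in MPTN, 375, 443 and 429 CPM in MPTN24, and 513, 653 and 539.5 CPM in WT. It fell by 0.45 ± 0.12 in MPTN24 against WT (adjusted p = 0.013) and was higher in MPTN than in MPTN24 by 0.62 ± 0.12 (adjusted p = 0.0028), while MPTN overlapped WT. The SLC38A2 call in MPTN24 was lost without MPTN24 1 (0.075), without WT 2 (0.067) and with limma on FPKM (0.055 and 0.059). SLC7A5 and SLC3A2, the chains of the large neutral amino acid exchanger LAT1, had the highest levels of the 42 per length, 510 ± 8.6 and 523 ± 35 FPKM in MPTN, 473 ± 41 and 419 ± 7.8 in MPTN24, and 528 ± 87 and 414 ± 54 in WT. Neither passed edgeR's test in any comparison with all 9 libraries. Limma on FPKM called SLC3A2 higher in MPTN than in WT (0.35 with plus 0.1, adjusted p = 0.022), and without WT 1 SLC7A5 was lower in MPTN24 than in WT by 0.32 on the log2 scale (adjusted p = 0.031). SLC7A1, the cationic amino acid carrier, passed no test, with log2 changes of 0.01 in MPTN and -0.08 in MPTN24 against WT.

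Of the 8 genes of tRNA charging and export, 4 were higher in MPTN24 than in WT and 0 lower by edgeR and limma (NARS1 by DESeq2, -0.29, adjusted p = 0.025, and 1 at an unadjusted p under 0.05), 4 were higher and 1 lower in MPTN than in WT, and 0 passed in MPTN against MPTN24 by edgeR, DESeq2, limma or an unadjusted p under 0.05. Without WT 1, 2 were lower in each comparison with WT, EPRS1 and NARS1, and 0 passed in MPTN against MPTN24. With all 9 libraries, 11.1% of all tested genes were higher and 12.1% lower in MPTN24, and 18.3% and 18.1% in MPTN, than in WT. SARS1, the seryl-tRNA synthetase, was at 448, 464 and 498 CPM in MPTN, 493, 465 and 456 CPM in MPTN24, and 244, 323 and 354 CPM in WT. MPTN and MPTN24 were above WT and overlapped each other. SARS1 rose by 0.62 ± 0.12 in MPTN and by 0.62 ± 0.12 in MPTN24 over WT (adjusted p = 0.0013 and 0.0031). The alanyl enzyme AARS1 (0.55 ± 0.12 and 0.59 ± 0.12), the tryptophanyl enzyme WARS1 (0.54 ± 0.12 and 0.53 ± 0.12) and the methionyl enzyme MARS1 (0.41 ± 0.09 and 0.36 ± 0.09) were also higher in MPTN and in MPTN24 than in WT, though MARS1 in MPTN24 did not pass without MPTN24 1 (0.072) or MPTN24 3 (0.064). For these genes MPTN and MPTN24 differed by at most 0.05 on the log2 scale, with standard errors of 0.09 to 0.12. EPRS1, which charges glutamate and proline, was at 171, 159 and 137 CPM in MPTN, 168, 222 and 187 CPM in MPTN24, and 178, 261 and 238 CPM in WT. It fell by 0.54 ± 0.14 in MPTN against WT (adjusted p = 0.0091), while -0.23 ± 0.14 in MPTN24 did not pass (adjusted p = 0.26); limma on FPKM did not call it in MPTN (0.088 and 0.09). GARS1 and XPOT, the glycyl enzyme and the tRNA exporter, passed no test, and NARS1, the asparaginyl enzyme, was at -0.20 ± 0.10 in MPTN and -0.29 ± 0.10 in MPTN24 against WT (adjusted p = 0.14 and 0.054).

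Other genes of the pathway, from lists drawn by role, were read beside the 42. Of 18 genes that sense stress at eIF2 or form eIF2 and its exchange factor, 0 were higher in any comparison by edgeR, DESeq2, limma or an unadjusted p under 0.05, and 6 were lower in MPTN and 4 in MPTN24 than in WT (7 and 4 without WT 1). Of all tested genes, 18.1% were lower in MPTN and 12.1% in MPTN24 than in WT (18.7% and 14.4% without WT 1). In MPTN against MPTN24, 0 were lower by edgeR and limma, 2 by DESeq2 and 5 at an unadjusted p under 0.05. Without WT 1, edgeR gave 4 lower there, with 9.81% of all genes lower. EIF2S1, the subunit that is phosphorylated, averaged 144 ± 12 CPM in MPTN, 166 ± 11 in MPTN24 and 242 ± 8.8 in WT, and fell by 0.75 ± 0.09 in MPTN and 0.54 ± 0.09 in MPTN24 (adjusted p = 4.1e-05 and 0.0015). Of the 4 eIF2 kinases, EIF2AK4 (GCN2) fell by 0.44 ± 0.10 in MPTN against WT (adjusted p = 0.0036), and EIF2AK1 (HRI), EIF2AK2 (PKR) and EIF2AK3 (PERK) did not pass with all 9 libraries. These are mRNA levels and say nothing of phosphorylation.

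Of 12 further targets of ATF4 or CHOP that could be tested, 7 were higher in MPTN and 6 in MPTN24 than in WT, and 6 were higher in MPTN than in MPTN24 (8, 7 and 7 without WT 1). The shares of all tested genes called higher were 18.3%, 11.1% and 7.85% (18.4%, 12.9% and 10.5% without WT 1). ADM2, a peptide hormone of the calcitonin family, averaged 18.2 ± 2.6 CPM in MPTN, 6.94 ± 1.2 in MPTN24 and 2.01 ± 0.40 in WT, and rose 9.002-fold in MPTN over WT (3.17 ± 0.20, adjusted p = 1.3e-07). GDF15, a secreted stress cytokine, was at 18.3, 13.1 and 19.3 CPM in MPTN, 6.199, 6.05 and 6.21 CPM in MPTN24, and 1.08, 1.93 and 2.99 CPM in WT. It rose by 3.06 ± 0.29 in MPTN and 1.61 ± 0.28 in MPTN24 over WT (adjusted p = 6.1e-06 and 0.0017), and MPTN exceeded MPTN24 by 1.46 ± 0.27 (adjusted p = 0.0029). ATF3, a bZIP factor induced by ATF4 and by other stresses, was at 9.31, 9.46 and 8.32 CPM in MPTN, 2.75, 3.76 and 2.92 CPM in MPTN24, and 6.996, 67.9 and 62.1 CPM in WT. Here WT 1 lay below the MPTN libraries and WT 2 and WT 3 far above them. ATF3 was at -2.34 ± 0.76 in MPTN and -3.86 ± 0.83 in MPTN24 against WT (adjusted p = 0.055 and 0.02), and without WT 1 it was lower in both (-2.85 and -4.37, adjusted p = 1.3e-08 and 9.6e-10). The call in MPTN24 was lost without any 1 MPTN24 library (0.06 to 0.086), without WT 2 (0.06) and without WT 3 (0.051).

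**Figure D4:**
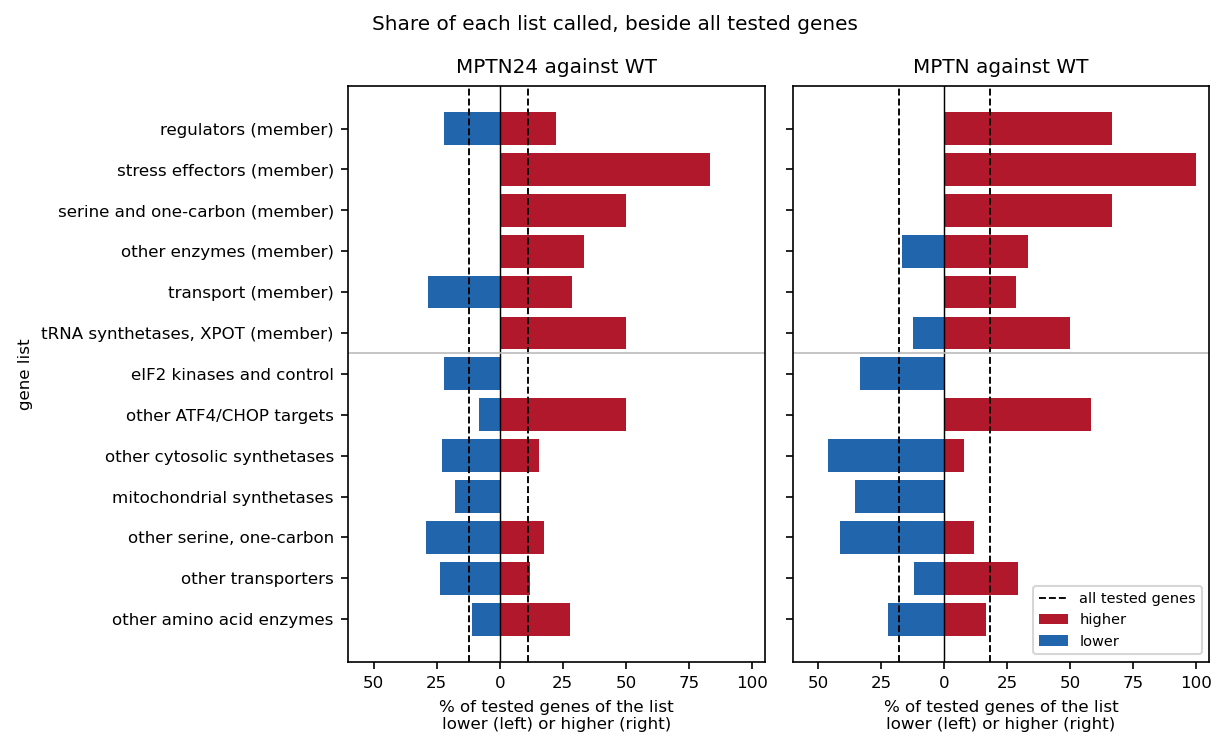
Bars give the share of the tested genes of each list called higher (right, red) and lower (left, blue) in MPTN24 against WT and in MPTN against WT, and dashed lines the share of all 16990 tested genes. In MPTN against WT, the 6 groups of the 42 genes, the further ATF4 and CHOP targets and the other transporters (29.4%) reach right of the right dashed line. Bars of the eIF2 genes, the remaining synthetases, the one-carbon genes and the other amino acid enzymes reach left of the left dashed line.

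Genes of the same pathways outside the 42 moved in both directions, with a balance that differed by list. Over all genes, 18.3% were higher and 18.1% lower in MPTN than in WT, and 11.1% and 12.1% in MPTN24 than in WT. In MPTN against MPTN24, 7.85% of all genes were higher and 6.7% lower (10.5% and 9.81% without WT 1). Of the 13 other cytosolic tRNA synthetases, 1 was higher and 6 lower in MPTN than in WT, and 2 were higher and 3 lower in MPTN24 than in WT (1 and 7, and 2 and 4, without WT 1). CARS1, the cysteinyl enzyme, rose by 0.36 ± 0.10 in MPTN and 0.43 ± 0.10 in MPTN24, whereas FARSB, of the phenylalanyl enzyme, fell by 0.76 ± 0.10 and KARS1, the lysyl enzyme, by 0.60 ± 0.09 in MPTN against WT (adjusted p = 6e-05 and 0.00016). Of 17 mitochondrial synthetases, 0 were higher by edgeR or DESeq2 (1 by limma, 1 at an unadjusted p under 0.05) and 6 were lower in MPTN than in WT; without WT 1, 1 was higher and 6 were lower. In MPTN24 against WT, 0 were higher by edgeR, DESeq2 or limma (1 at an unadjusted p under 0.05) and 3 lower, and 2 and 3 without WT 1. Among 17 tested genes of serine and folate metabolism, 2 were higher and 7 lower in MPTN than in WT (3 and 8 without WT 1), and 3 and 5 in MPTN24 with or without WT 1. MTHFD1, the cytosolic folate enzyme, fell by 0.98 ± 0.09 in MPTN against WT and by 0.75 ± 0.09 against MPTN24 (adjusted p = 3.4e-06 and 0.00012). Of 17 tested transporters outside the 42, 5 were higher and 2 lower in MPTN than in WT (7 and 1 without WT 1, which leaves 18 tested), and 2 and 4 in MPTN24 (3 and 4 without WT 1). SLC7A8, a light chain partner of SLC3A2, rose by 0.64 ± 0.13 in MPTN and 1.20 ± 0.14 in MPTN24 over WT (adjusted p = 0.002 and 0.00016). Of 18 tested amino acid enzymes, 3 were higher and 4 lower in MPTN than in WT (3 and 6 without WT 1), and 5 and 2 in MPTN24 (4 and 3 without WT 1). ASS1, which makes argininosuccinate, was higher in MPTN by 1.25 ± 0.27 (adjusted p = 0.0067) and 0.96 without WT 1. In MPTN against MPTN24, edgeR called 0 of the 13 cytosolic synthetases higher and 5 lower, and 0 and 4 of the 17 mitochondrial ones. The counts were 1 and 6 for serine and folate genes, 3 and 2 for transporters, and 0 and 4 for amino acid enzymes. Without WT 1 these lists gave 0 and 5, 0 and 4, 1 and 6, 4 and 2, and 1 and 7.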

How the data were processed

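Total RNA was extracted with Trizol and made into libraries with the Illumina TruSeq RNA kit from 1 µg, per the labels' protocols. CASAVA 1.8, Trimmomatic, FastQC, HISAT2, StringTie, edgeR and GRCh38 are named in the submitters' processing notes; their order, settings and the annotation release are not given in the sources used here. The deposited estimated counts per gene, whole numbers, were used for every test. The authors' second table carries no unit; its values were taken as FPKM from their ratio to the deposited counts, and serve only for levels per length and as an alternative. Genes were kept with filterByExpr (minimum count 10, total 15). One edgeR 4.0.16 quasi-likelihood fit (R 4.3.3, TMM) over 9 libraries gave the contrasts MPTN24 minus WT, MPTN minus WT and MPTN minus MPTN24, with Benjamini-Hochberg adjustment over 16990 genes. Values are CPM; ± is the SD of a mean or the SE of a log2 change. The labels do not say whether replicates are separate cultures, so p-values measure only the spread between these libraries. Replicates differed beyond counting noise (chi-square per degree of freedom 3.73 to 42.4). The fit was also run on simulated counts with known changes, drawn independently for each library from its own dispersions. These counts held no shared deviation like that of WT 1, so the run cannot address it. Alternatives were DESeq2 (version 1.42.0), limma (version 3.58.1) with FPKM on the log2 scale after adding 0.1 or 1, other scalings and filters, the replicate number as a block, only the 2 groups compared, counts divided by 4, and each library left out. The 42 genes, the further pathway lists and the alternatives were chosen with earlier results of these data known. Beyond the 42, the text names the kinases of eIF2, ATF3, ADM2 and, in each list, genes of at least 5 CPM on average with the largest passing changes. Gene positions are those of the deposited table, and promoter sequences are from RefSeq on GRCh38.p14.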

Additional observations from a re-analysis of the deposited data

Results flagged for a closer look

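In 12 of the 42 genes the change against WT differed between MPTN and MPTN24, tested directly as MPTN against MPTN24 with edgeR's quasi-likelihood test. That test called 7.85% of all tested genes higher and 6.7% lower. The difference of the log2 changes was 1.77 for VLDLR, 0.85 for CHAC1, 0.82 for SESN2, 0.78 for SLC1A4 and 0.71 for STC2, where MPTN lay above both MPTN24 and WT. DDIT3 (0.65) and CEBPG (0.53) were also highest in MPTN, and MPTN24 against WT did not pass. In SLC7A11 (0.83), PPP1R15A (0.7), SLC38A2 (0.62) and ATF5 (0.52) the MPTN24 libraries were the lowest and MPTN against WT did not pass. ALDH18A1 alone was lower in MPTN than in MPTN24 (-0.66). The calls of CEBPG, DDIT3, ATF5 and SLC1A4 were lost under at least 1 alternative, with adjusted p of up to 0.13, 0.07, 0.068 and 0.075. The remaining 8 held in all 19 alternatives, and all 12 without WT 1. The VLDLR difference was 0.92 with limma on log2 of FPKM plus 1 (adjusted p = 0.0011).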

How the results depend on the processing

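No called gene changed sign in any of 19 alternatives, and 14 of 22, 20 of 26 and 8 of 12 calls of the 42 genes held in all of them in MPTN24 against WT, MPTN against WT and MPTN against MPTN24. Leaving out 1 library at a time gave 12 to 18 higher and 3 to 10 lower genes of the 42 in MPTN24 against WT, 21 to 25 and 2 to 4 in MPTN against WT, and 8 to 13 and 1 to 2 in MPTN against MPTN24; the counts of 10, 4 and 2 lower came without WT 1. Limma on log2 of FPKM plus 0.1 or plus 1 gave 1 lower gene in MPTN against WT, and fitting only the 2 groups compared gave 2 lower in MPTN against MPTN24. Calls that were lost most often were PHGDH in MPTN24 (10 of 19; adjusted p = 0.12 with no filter, 0.053 with the replicate block, up to 0.14), SLC1A5 in MPTN24 (6, up to 0.13), CEBPG in MPTN against MPTN24 (8, up to 0.13) and against WT (7, up to 0.12), and ALDH1L2 in MPTN (8, up to 0.11). JDP2 and EPRS1 in MPTN were lost with limma (0.17 and 0.088), and EIF4EBP1, SLC38A2 and MARS1 in MPTN24 without MPTN24 1 (0.082, 0.075 and 0.072). CBS with limma on FPKM plus 1 was at 0.65 in MPTN24 and 0.73 in MPTN against WT. The causes were not tested.

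Over all tested genes, limma gave 1002 and 1001 lower genes in place of 2052 in MPTN24 against WT, 1867 and 1881 in place of 3071 in MPTN against WT, and 634 and 639 in place of 1138 in MPTN against MPTN24. Without 1 library these counts ran from 1022 to 2286 higher (1884 with all 9 libraries) and 935 to 2535 lower in MPTN24, and from 741 to 1860 higher (1334) and 569 to 1732 lower in MPTN against MPTN24. The share of calls that were higher was 47.9%, 50.4% and 54% in the 3 comparisons, 59.3% and 58.3% against WT with upper-quartile scaling, and 65.5%, 66.4% and 67.8% with limma on FPKM plus 0.1. The median log2 change of all genes in MPTN against WT was 0.12 with that limma fit and 0.02 with edgeR. Same-numbered libraries did not deviate together (correlations of -0.03 to 0.07 in 9 pairs, and 6 of 18 best with their own number). These values show no pairing by number, but with 3 libraries per group they cannot exclude a weak one. With the replicate block 17 and 4, 25 and 2, and 13 and 1 of the 42 were higher and lower. Counts of the 6 roles stayed within 1.5 times in 648 of 684 values. Counts of 0 that stayed at 0 are among these 648, so the share does not measure the stability of counts above 0. Depth limits NUPR1, at 116 counts.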
